A study of Mus musculus with 4 samples.

Results

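The genes described here encode the cytosolic translation initiation factors (Eif symbols), the elongation factors (Eef symbols) with the enzymes named after them, and the cytosolic aminoacyl-tRNA synthetases. Membership goes by gene symbol. A gene was counted as measured where a probe identifier on the array held its NCBI gene number, a reading of the identifiers that is an inference. The annotation lists 107 genes that these symbols cover, of which 92 are protein coding. Of the 107, 44 genes had a named probe (59 probes), out of 8127 genes named on the array in all. The other 63, among them Eif4g1, the 5 Eif2b genes, Eif2ak2, Eif2ak3, Eif2ak4 and 14 of the 20 synthetases, were not analysed here.

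The samples were mitomycin C-inactivated CF1 mouse embryonic fibroblasts, cells made unable to divide so that they can serve as feeders for human embryonic stem cells. FGF2, a fibroblast growth factor that signals through receptor tyrosine kinases, was added at 4, 13 or 40 ng/ml (1 array per dose, 3 in all), and the untreated control had 3 biological replicates. All cells, controls included, had been inactivated and seeded onto gelatine (55000 cells per square centimetre). They then spent 24 h in the serum replacement medium of human embryonic stem cells, with or without FGF2. Sex, passage and the number of animals behind the cells are not given in the sources used here, and neither is whether the FGF2 arrays came from separate cultures.

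The 6 arrays were alike in brightness. Their median signals over 46116 probes lay between 102.5 and 113.6, and each detected 11195 to 11698 of them. Of the fibroblast markers, 6 of 12 had a named probe and all 6 were detected. Their summed level was 18655 to 21715 on the FGF2 arrays and 31654 to 35908 on the control arrays, and Col1a1, Col1a2 and Col3a1 passed the test as lower. Postn was above the detection limit on all 3 controls but on 0 of the 3 FGF2 arrays, and was at least 1.08-fold lower with FGF2 (adjusted p = 0.00552), the bound being taken against the dimmest detected signal. Dcn (log2 change 0.19, all FGF2 arrays above the controls, adjusted p = 0.0623) and S100a4 (-0.03) did not pass. No pluripotency marker (0 of 3 named, Nanog, Sox2 and Zfp42) and no endothelial marker (0 of 1, Pecam1) was detected. Of the epithelial markers, Krt18 was detected on the 3 FGF2 arrays and on 0 of the 3 control arrays (at least 1.12-fold higher, adjusted p = 0.0112), and Krt8 was not detected. The summed level of both was 310 to 323 with FGF2 and 293 to 295 in controls. Of 5 named leukocyte markers only Lyz2 was detected, and it was lower with FGF2 (log2 change -0.40, adjusted p = 0.00147), with a summed level of the 5 of 776 to 784 with FGF2 and 839 to 852 in controls. The part of these markers in the results below was not tested. In such bulk RNA, fewer cells of a type and less RNA per cell cannot be told apart.

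Translation begins when eIF2 brings the initiator tRNA to the small ribosomal subunit, while the eIF4 proteins bind the mRNA cap and unwind the leader and eIF3 holds the complex together. With eIF5 and eIF5B the factors are then released and the large subunit joins. The eEF1 and eEF2 proteins drive each round of elongation, and the synthetases charge tRNAs with their amino acids. Growth factors are known to act on this machinery largely through phosphorylation, for example by way of mTORC1 and the eIF4E-binding proteins. The eIF2 kinases also act by phosphorylation. RNA levels do not show phosphorylation.

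Of the 44 genes, 38 had a detected probe and were tested. The probes of Eif2s1, Eif4a2, Eif5b, Eef1a2, Dars and Iars were not detected and have no value here. A probe was tested where its detection score, the rank of its signal among the array's negative controls, reached 0.99 on 3 or more of the 6 arrays. Values are log2 normalised signals, a change is the FGF2 mean minus the control mean, and p-values come from limma, adjusted by Benjamini-Hochberg across the 11763 tested probes (threshold 0.05). The SD of the FGF2 group spans the 3 doses. Background correction shrinks the changes of dim probes, so a small change on a dim probe is not an exact size.

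With FGF2, 12 of the 38 genes changed, 10 of them higher and 2 lower. The higher genes were Eif5a, Eif4g3, Eif4a1, Eif3a, Farsa, Eif6, Eif4b, Eif4ebp1, Eef1d and Eif3g, and the lower ones Aars and Eif4e3. Eif5a changed most, by 1.84-fold, and no member changed by more than 2-fold, against 4.02% of all tested probes that passed and did so. Among all tested probes 36.8% passed (18.4% higher and 18.4% lower), against 31.6% of these genes (26.3% higher and 5.26% lower). The share that passed in either direction was near the background and is not a result about these genes. The higher share lay above the background and the lower share below it, and this split was not tested. The median log2 change of the 38 genes was 0.08, against 0.005 over all probes. Their median absolute change was 0.17, against 0.11 over all probes and 0.13 over all named genes. That order depends on the background correction. With the spread of the negative controls estimated robustly, chosen after seeing the data, all probes had 0.27 and the 38 genes less than that. The arrays of the groups did not overlap for 18 of the 38 genes (47.4%), against 53.0% of all probes.

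**Figure D1:**
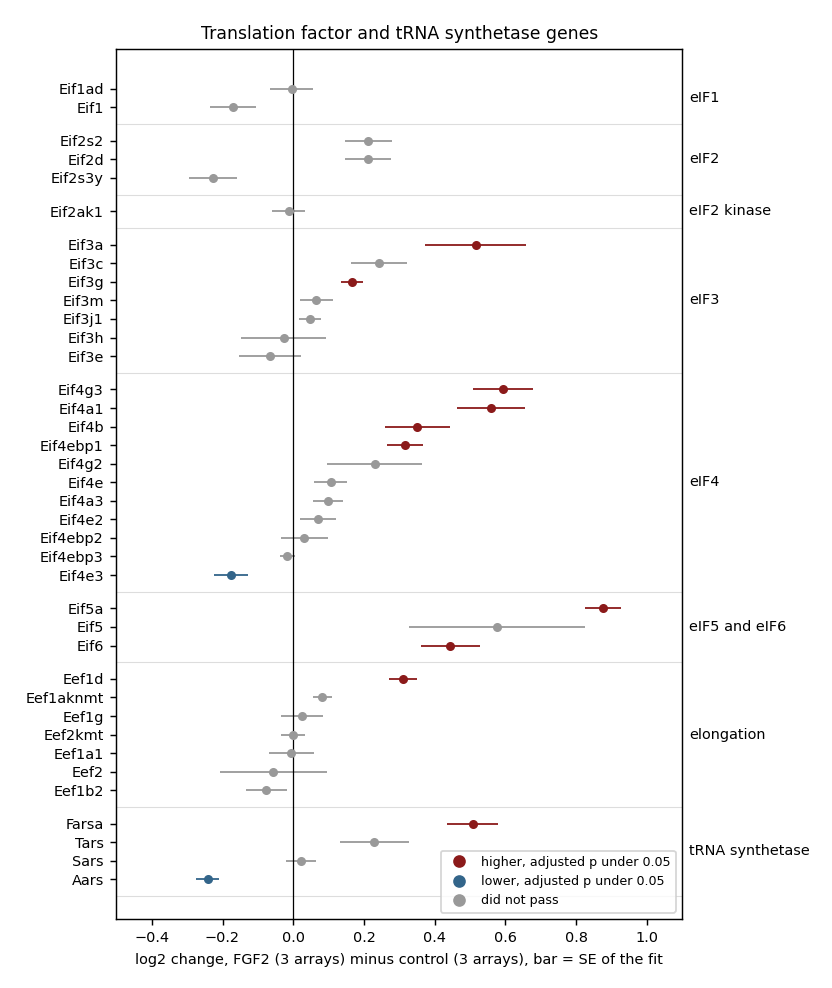
Log2 change (FGF2 minus control, 3 arrays each) of the 38 tested genes on the x axis, grouped by role, with the SE of the fit as bars and colour for the test. Changes ran from -0.24 (Aars) to 0.88 (Eif5a), and 10 higher and 2 lower genes passed.

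Among the eIF5 and eIF6 genes, 2 of the 3 tested were higher with FGF2. Eif5a encodes the hypusine-bearing factor that helps ribosomes past stalling stretches such as runs of proline. Its signal was 10.64, 10.65 and 10.55 at 4, 13 and 40 ng/ml, against 9.81, 9.66 and 9.73 in the controls. Every FGF2 array lay clearly above every control, and the FGF2 arrays lay close to each other. The change was 0.88 ± 0.05 (SE, adjusted p = 0.000491), and a separate probe of the gene gave 0.68 ± 0.04 (adjusted p = 0.000511). It was the only member with more than 1 detected probe in which all of them passed.

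Eif6, which keeps the large ribosomal subunit from joining the small one too early and also takes part in building it, had 11.40, 11.62 and 11.62 at the rising doses, against 11.16, 10.98 and 11.17 in the controls. The groups did not overlap, and the change was 0.44 ± 0.08 (SE, 1.36-fold, adjusted p = 0.0117). Eif5, the GTPase-activating protein that triggers hydrolysis on eIF2, behaved otherwise. It had 8.75, 9.68 and 9.50 at the rising doses, against 8.86, 8.63 and 8.70 in the controls. The 4 ng/ml array lay within the controls and the other FGF2 arrays well above them, so that the mean change of 0.58 ± 0.25 (SE) did not pass (adjusted p = 0.125). Without the 4 ng/ml array it passed (adjusted p = 0.0021), and against the controls alone it was higher at 13 ng/ml (0.95, adjusted p = 0.0109) and at 40 ng/ml (0.77, adjusted p = 0.0173), with 0.02 at 4 ng/ml (adjusted p = 0.939). Each of these changes by dose rests on 1 FGF2 array and has no replicate.

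The eIF4 genes held 5 of the 12 that passed, 4 higher and 1 lower of 11 tested. Eif4g3, a scaffold that joins the cap-binding protein to the helicase and to eIF3, had 10.33, 10.54 and 10.41 at 4, 13 and 40 ng/ml, against 9.79, 9.72 and 9.98 in the controls. The change was 0.59 ± 0.08 (SE, 1.51-fold, adjusted p = 0.00502), without overlap. Eif4a1, the helicase that unwinds mRNA leaders, had 11.07, 10.91 and 10.76 at the rising doses, against 10.46, 10.24 and 10.37 in the controls. All FGF2 arrays were above the controls, with the 4 ng/ml array highest, and the change was 0.56 ± 0.10 (SE, 1.47-fold, adjusted p = 0.0086).

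Eif4b, which stimulates that helicase, had 8.46, 8.31 and 8.29 at 4, 13 and 40 ng/ml, against 8.07, 8.12 and 7.82 in the controls. The groups were separate but the controls were spread, and the change was 0.35 ± 0.09 (SE, adjusted p = 0.0322). A dimmer probe of Eif4b gave 0.03 (adjusted p = 0.403), and the call was lost without control replicate 1 or without any 1 of the FGF2 arrays (adjusted p up to 0.0732). Eif4ebp1 encodes a repressor that sequesters the cap-binding protein eIF4E until mTORC1 phosphorylates it. It had 12.40, 12.38 and 12.52 with FGF2, against 12.18, 12.08 and 12.09 in the controls, all FGF2 arrays higher (0.32 ± 0.05 SE, 1.24-fold, adjusted p = 0.00705).

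Eif4e3, a cap-binding relative of eIF4E, was lower, with 7.84, 7.87 and 7.83 at 4, 13 and 40 ng/ml against 7.94, 8.02 and 8.11 in the controls. The gap between the groups was narrow, and the change was -0.18 ± 0.05 (SE, adjusted p = 0.0375). This call was lost in 5 of the 6 fits that left out 1 array (adjusted p up to 0.116), and its other probe gave -0.04 (adjusted p = 0.337). The remaining eIF4 genes did not pass: the cap-binding Eif4e (0.11 ± 0.05 SE, adjusted p = 0.135), its relative Eif4e2 (0.07, with a second, dimmer probe that passed at 0.11, adjusted p = 0.0333), Eif4g2 (0.23), the exon junction helicase Eif4a3 (0.10), and the repressors Eif4ebp2 (0.03) and Eif4ebp3 (-0.02).

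**Figure D2:**
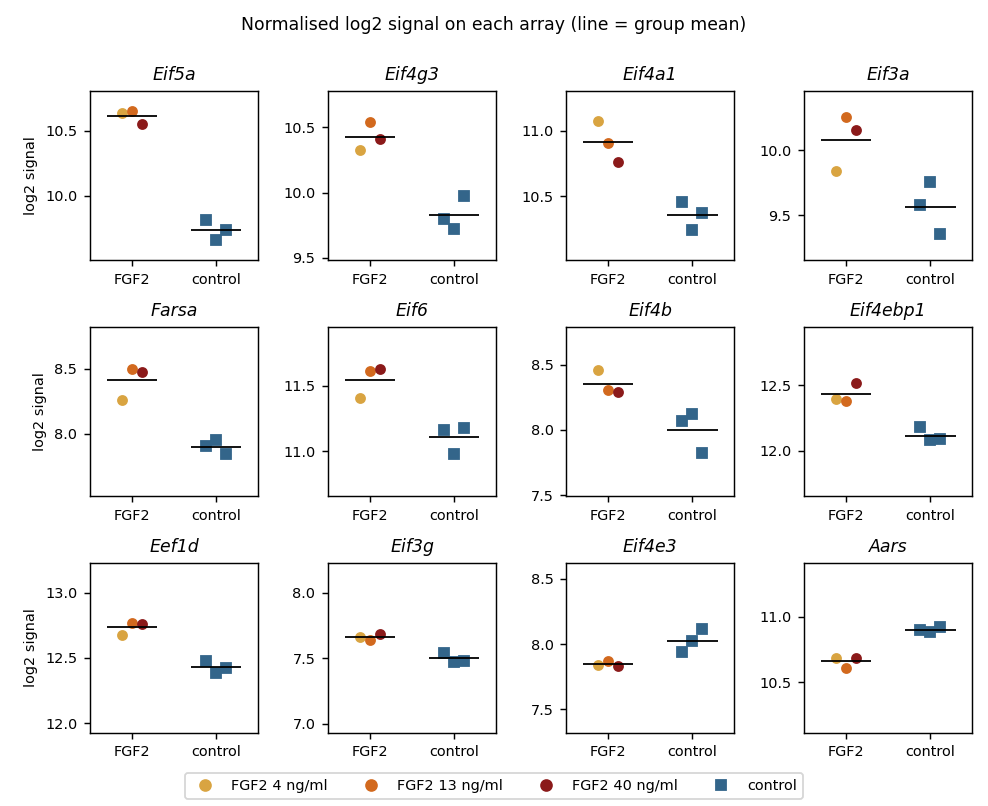
Normalised log2 signal (y axis, each panel spanning the same range) on the 3 FGF2 arrays, coloured by dose, and the 3 control arrays for the 12 genes that passed, with lines at the group means. No FGF2 array overlaps a control in any panel, and Eif5a has the widest gap (10.55 to 10.65 against 9.66 to 9.81).

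The eIF3 genes showed 2 higher members of 7 tested, and 5 that did not pass. Eif3a, a core subunit of the complex, had 9.84, 10.25 and 10.15 at 4, 13 and 40 ng/ml, against 9.58, 9.75 and 9.36 in the controls. The lowest FGF2 array lay just above the highest control, and the change of 0.52 ± 0.14 (SE, 1.43-fold, adjusted p = 0.038) did not pass (adjusted p up to 0.119) without control replicate 1, control replicate 3, or the FGF2 array of 13 or of 40 ng/ml. Eif3g, an RNA-binding subunit, was dim, with 7.66, 7.64 and 7.69 with FGF2 against 7.54, 7.47 and 7.48 in the controls. The arrays were tight within each group, and the change was 0.17 ± 0.03 (SE, adjusted p = 0.0109). With the spread of the negative controls estimated robustly, which shrinks dim probes less, it was 0.48 (adjusted p = 0.00561). Eif3c had 0.24 ± 0.08 (SE, adjusted p = 0.0642), and Eif3m, Eif3j1, Eif3h and Eif3e lay between -0.07 and 0.07.

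None of the 2 eIF1 genes, the 3 eIF2 genes or the eIF2 kinase passed in this fit (0 of 6 by limma). Eif1, Eif2d, Eif2s2 and Eif2s3y had an unadjusted p under 0.05 by limma. So had 18 of all 38 members and 5530 of all 11763 tested probes. Eif1, which guards start codon choice, had 12.84, 12.88 and 12.75 with FGF2 against 12.90, 13.11 and 12.97 in the controls. All FGF2 arrays were lower, but the change of -0.17 ± 0.06 (SE) did not pass (adjusted p = 0.0914). In the authors' deposited table the mean log2 ratio of Eif1 was -0.03. Eif2s3y, the Y-linked copy of the gamma subunit of eIF2, had 8.02, 7.79 and 7.82 at the rising doses, against 8.12, 8.15 and 8.05 in the controls. It just missed the threshold (-0.23 ± 0.07 SE, adjusted p = 0.0501). The probe sequence is not given in the files used here, so signal from the X-linked copy cannot be told apart. Eif2s2, the beta subunit, and Eif2d, which can deliver tRNA without eIF2, both had 0.21 (adjusted p = 0.0564 and 0.0507). Eif2ak1, the heme-regulated eIF2 kinase, had 8.01, 7.99 and 8.08 with FGF2 against 8.09, 7.95 and 8.06 in the controls. These overlapped, with a 95% interval of the change of -0.13 to 0.10.

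Elongation factors gave 1 gene of 7 that passed. Eef1d, a subunit of the complex that recharges eEF1A with GTP, had 12.68, 12.77 and 12.76 at 4, 13 and 40 ng/ml, against 12.47, 12.39 and 12.42 in the controls. The groups were well apart for so small a change (0.31 ± 0.04 SE, 1.24-fold, adjusted p = 0.0033). The other subunits of that complex did not pass. Eef1b2 had -0.08 (95% interval -0.22 to 0.07) and Eef1g 0.03 (-0.12 to 0.17), and the test of their difference from Eef1d was not made. Eef1a1, the factor that carries charged tRNA to the ribosome, had -0.01 (-0.16 to 0.15) on a dim probe, and the annotation holds pseudogene copies of it whose signal cannot be told apart here. Eef2, the translocase, had -0.06 on its brightest probe (95% interval -0.43 to 0.32, adjusted p = 0.807), while its other probes gave -0.28 (adjusted p = 0.0315) and -0.23 (adjusted p = 0.206). The methyltransferases of eEF1A and eEF2 did not pass, with 0.08 for Eef1aknmt (adjusted p = 0.0642) and -0.00075 for Eef2kmt.

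**Figure D3:**
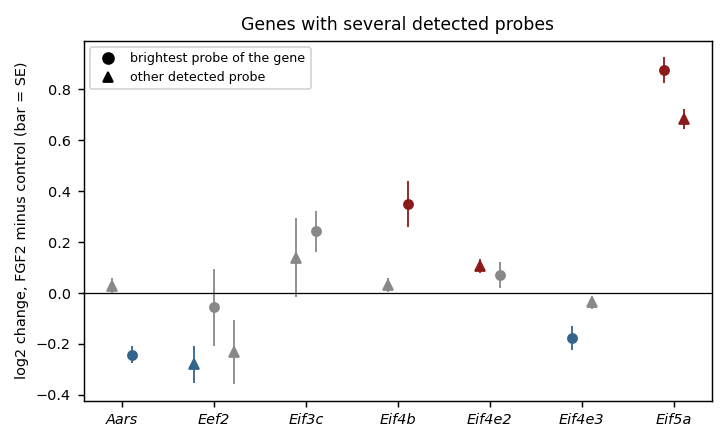
Log2 change, FGF2 minus control, with its SE (y axis) for each detected probe of the 7 genes that had more than 1, circles for the brightest probe. Probes ran the same way in 6 of the 7 genes, both Eif5a probes passed, and those of Aars lay on opposite sides of 0.

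Of the 4 synthetases tested, Farsa was higher and Aars lower. Farsa, the catalytic subunit of phenylalanyl-tRNA synthetase, had 8.26, 8.49 and 8.47 at 4, 13 and 40 ng/ml, against 7.90, 7.96 and 7.85 in the controls. Every FGF2 array was higher (0.51 ± 0.07 SE, 1.42-fold, adjusted p = 0.00495). Aars, which charges alanine tRNA, had 10.69, 10.61 and 10.69 with FGF2, against 10.90, 10.88 and 10.92 in the controls. The replicates were very close and the FGF2 arrays all lower, by 0.24 ± 0.03 (SE, adjusted p = 0.00404). Its other, dim probe gave 0.03 (adjusted p = 0.507), so the probes disagreed in direction, and the mean log2 ratio in the authors' deposited table was -0.11. Tars, the threonine enzyme, had 8.84, 9.20 and 9.07 at the rising doses, against 8.77, 8.76 and 8.89 in the controls, and did not pass (0.23 ± 0.10 SE, adjusted p = 0.122). Sars, the serine enzyme, had 0.02 with a 95% interval of -0.08 to 0.13.

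Promoters were read as a description for members that differed or are named above, since 35 of the 44 genes had an entry in the RefSeq table of build GRCm38.p6, which gives 250 bases before and 50 from each annotated start. An E-box, CACGTG on either strand, was found in 9 of these 35 (Aars, Eef1aknmt, Eef2, Eif3a, Eif4a1, Eif4e, Eif5a, Iars and Tars), against 8.09% of all 27025 genes, and in 3 of the 7 higher members that had an entry. The promoters of those 3 higher members are shown for this motif, which is in capitals. The sequences belong to Eif5a (chr11:69921337-69921636, minus strand), Eif4a1 (chr11:69672374-69672673, minus strand) and Eif3a (chr19:60790644-60790943, minus strand).
Eif5a: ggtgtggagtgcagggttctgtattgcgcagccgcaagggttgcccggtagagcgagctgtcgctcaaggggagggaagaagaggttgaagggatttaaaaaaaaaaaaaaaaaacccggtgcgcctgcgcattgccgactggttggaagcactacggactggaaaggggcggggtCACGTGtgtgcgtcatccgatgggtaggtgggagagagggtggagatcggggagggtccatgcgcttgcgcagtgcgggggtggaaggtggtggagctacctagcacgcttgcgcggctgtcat
Eif4a1: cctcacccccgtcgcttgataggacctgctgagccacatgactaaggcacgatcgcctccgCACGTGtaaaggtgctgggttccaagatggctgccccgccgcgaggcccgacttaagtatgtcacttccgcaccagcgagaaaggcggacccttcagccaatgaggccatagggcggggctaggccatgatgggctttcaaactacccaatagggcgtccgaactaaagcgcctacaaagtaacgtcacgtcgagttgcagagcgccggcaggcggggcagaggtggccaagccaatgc
Eif3a: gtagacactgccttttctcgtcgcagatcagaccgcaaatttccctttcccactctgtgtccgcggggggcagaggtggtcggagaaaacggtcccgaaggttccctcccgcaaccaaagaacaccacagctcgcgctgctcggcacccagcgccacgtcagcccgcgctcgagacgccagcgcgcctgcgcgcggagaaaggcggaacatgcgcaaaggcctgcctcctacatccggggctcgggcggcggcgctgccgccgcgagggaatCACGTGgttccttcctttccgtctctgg
Eif5a has 6 entries, of which 3 hold the motif and 1 of those is shown, while Eif4a1 and Eif3a have 1 entry each. The motif begins 74 bases before the start shown for Eif5a, 189 bases before it in Eif4a1 and 22 bases after it in Eif3a. A match is only these letters in the window and no measured binding site.

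The element TGATGCAA, to which C/EBP-ATF dimers bind, was found on either strand in 3 of the 6 synthetases with an entry (Aars, Iars and Tars) and in 0 of the 29 other members, against 1.03% of all genes. The wider form TGATGNAAN, which includes it, was found in the same 3 genes, against 4.5% of all. Aars (chr8:111033592-111033891, plus strand) and Tars (chr15:11399609-11399908, minus strand) are shown as the synthetases that hold the element and had a detected probe, the one lower with FGF2 on its bright probe and the other not passing, and capitals mark the wider form and the E-box.
Aars: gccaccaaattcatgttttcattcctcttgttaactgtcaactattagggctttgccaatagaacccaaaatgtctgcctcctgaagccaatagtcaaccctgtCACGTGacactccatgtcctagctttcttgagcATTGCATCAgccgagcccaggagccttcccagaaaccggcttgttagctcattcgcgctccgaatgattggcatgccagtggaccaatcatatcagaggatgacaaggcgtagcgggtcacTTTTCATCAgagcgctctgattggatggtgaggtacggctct
Tars: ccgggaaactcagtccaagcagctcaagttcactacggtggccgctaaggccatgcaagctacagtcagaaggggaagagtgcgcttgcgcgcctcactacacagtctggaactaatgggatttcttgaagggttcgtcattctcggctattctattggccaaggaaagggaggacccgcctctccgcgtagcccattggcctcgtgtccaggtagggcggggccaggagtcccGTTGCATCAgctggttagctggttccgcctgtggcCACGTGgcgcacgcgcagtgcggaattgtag
The wider form begins 113 bases before the start in Aars, with a further match 8 bases after that start, and 16 bases before the start in Tars. An annotated start of C followed by 4 or more pyrimidines was found in 0 of the 35 genes, against 3.01% of all, and this says only that the annotated start bases are not of that form.

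The doses were compared next, each single FGF2 array against the 3 controls that the comparisons share, with the single array assumed to vary like the controls. At 4 ng/ml 4 of the 38 genes passed, 3 higher (Eif4a1, Eif5a and Farsa) and 1 lower (Aars), against 13.9% of all probes (7.31% higher and 6.57% lower). At 13 ng/ml 11 passed, 9 higher and 2 lower, against 25.7% (13.3% and 12.4%), and at 40 ng/ml 9 passed, 7 higher and 2 lower, against 24.8% (13.0% and 11.8%). All 12 genes that passed over the doses together had the same sign at every dose. They were chosen on the mean of these same arrays, so this is no separate support. For each of the 12 genes the change at 4 ng/ml was taken as a percentage of that at 40 ng/ml. The median of these percentages was 86.3%, against 77.0% over all probes that passed. The change was larger at 40 than at 4 ng/ml in 9 of 12, against 78.7% of all such probes. Without control replicate 1 the counts were 1, 2 and 3 genes at the rising doses, and without control replicate 2 they were 2 at 4 ng/ml and 5 at 40 ng/ml.

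No member had a slope over the log2 dose that passed (0 of 38 by limma, with 1 at an unadjusted p under 0.05), nor did any of all the probes tested (0, with 1236 at an unadjusted p under 0.05). The steepest slopes were those of Eif5 (0.23 per doubling of dose, adjusted p = 0.493), Eif4a1 (-0.09, adjusted p = 0.446, unadjusted p = 0.0362) and Eif3a (0.09, adjusted p = 0.691). Eif4a1 had its largest change at the lowest dose, with 0.72, 0.55 and 0.41 at the rising doses. Eif3a had 0.28, 0.69 and 0.59 at these doses, and Tars 0.03, 0.39 and 0.26. With 1 array per dose these patterns have no replicate.

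**Figure D4:**
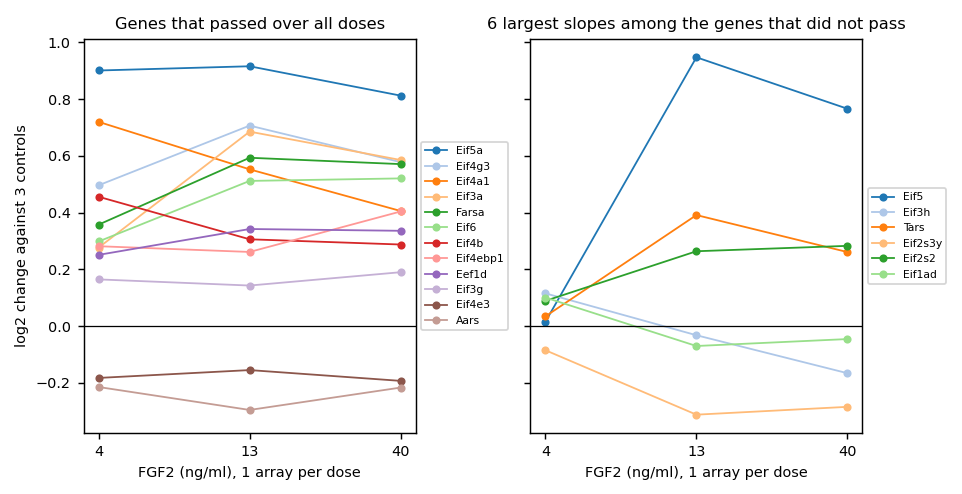
Log2 change against the 3 controls (y axis) at each FGF2 dose (x axis, spaced evenly) for the 12 genes that passed (left) and for the 6 genes with the steepest slopes among those that did not (right). Eif5a stays between 0.81 and 0.92, and Eif5 is at 0.02 at 4 ng/ml and 0.95 at 13 ng/ml.

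Other genes of protein synthesis were read from lists, each beside the background of 36.8% of all probes that passed. The ribosome biogenesis list had 16 tested genes, of which 11 were higher, 0 lower and 5 did not pass (68.8% passed), with a median log2 change of 0.43. Fbl, the rRNA methyltransferase fibrillarin, had 10.99, 10.90 and 11.13 at 4, 13 and 40 ng/ml, against 10.10, 10.01 and 9.92 in the controls. It was higher by 0.997 ± 0.073 (SE, adjusted p = 0.000833), and all FGF2 arrays lay above the controls. The rRNA methyltransferase Nop2 (0.57), the H/ACA particle protein Nhp2 (0.61) and the box C/D protein Nop58 (0.85) were higher too (adjusted p = 0.00225, 0.00236 and 0.00314).

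Of 8 mitochondrial synthetases tested, 1 was higher and 1 lower (median 0.03). Iars2, the isoleucine enzyme, was the higher one (0.45, adjusted p = 0.0229), and Tars2 (0.05) and Mars2 (0.04) did not pass. Of 3 mitochondrial factors Tufm, the elongation factor Tu, was higher at 0.57 ± 0.05 (SE, adjusted p = 0.00133), with a list median of 0.05, while Mtif3 (-0.04) and Gfm2 (0.05) did not pass. Of the synthetase complex scaffolds only Aimp1 was tested, and it was higher (0.30, adjusted p = 0.0161).

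Among cytosolic regulators, the poly(A) and cap list had 2 higher and 2 lower genes of 9, with a median of 0.06. Larp1, which binds mRNAs with pyrimidine-rich starts (0.23, adjusted p = 0.00633), and Cyfip1, an eIF4E-binding protein (0.25, adjusted p = 0.0215), were higher. Pdcd4, an inhibitor of the eIF4A helicase (-0.39, adjusted p = 0.0229), and Pabpc4, a poly(A)-binding protein (-0.18, adjusted p = 0.0336), were lower. In the list of enzymes that modify translation factors 1 of 4 was higher (median 0.10), namely Metap2, which trims the initiator methionine (0.42 ± 0.07 SE, adjusted p = 0.00961). Dohh, which completes the hypusine of eIF5A, had 0.13 (adjusted p = 0.0936), and the diphthamide genes Dph5 and Dph1 had 0.06 and -0.04.

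In the mTORC1 list 1 of 5 genes was lower, Lamtor1, a lysosomal anchor of the pathway (-0.16, adjusted p = 0.032, list median -0.03), and Rps6ka3 (not detected on the controls), Akt1s1 (0.27) and Rragc (-0.20) did not pass. In the integrated stress response list 2 of 4 passed (median 0.05), Phgdh of serine synthesis higher (0.11, adjusted p = 0.0341) and Vldlr lower (-0.36, adjusted p = 0.00167), with Cebpb at 0.45 (adjusted p = 0.0774) and Ppp1r15b at 0.003. Of 4 termination and rescue genes 0 passed (median 0.08), with the release factor GTPases Gspt2 at 0.18 (adjusted p = 0.0506) and Gspt1 at 0.22 (adjusted p = 0.0679), Pelo at -0.18 and Hbs1l at -0.01. In the list of RNA polymerase III and tRNA processing 1 of 10 tested genes was higher and 0 were lower (median 0.04). Of the genes that did not pass, Polr3b had 0.11, Gtf3c2 0.24 and Polr3k 0.05.

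**Figure D5:**
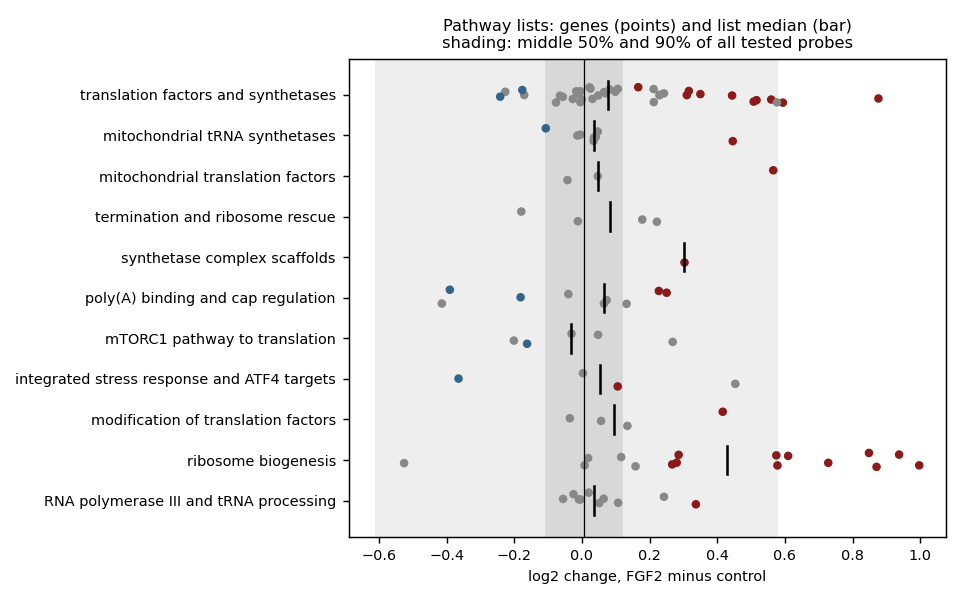
Log2 change, FGF2 minus control (x axis), of each tested gene (points, vertical scatter without meaning; dark red higher, blue lower, grey did not pass) in the lists on the y axis, with list medians as bars and shading for the middle 50% and 90% of all tested probes (-0.11 to 0.12 and -0.61 to 0.58). The ribosome biogenesis median lies at 0.43 and that of the translation factors and synthetases at 0.08.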

How the data were processed

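The 6 hybridisations used a one-colour Illumina bead array. Per the file headers, each gives a mean bead signal per probe, an intensity on a linear scale without background subtraction or normalisation, and a detection score, a fraction between 0 and 1. Per the submitters' processing notes BeadStudio 1.0 was used. RNA (300 ng) was amplified with 6 h of in vitro transcription, per the labels' protocols. The authors also deposited processed intensity values, with the control as a mean of its replicates, used here only as an alternative.

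Signals were corrected and quantile-normalised with neqc (limma 3.58.1, R 4.3.3; offset 16), with the negative controls inferred from the detection scores, and tested with lmFit and eBayes, two-sided. The fit was run on simulated data with the same spread for every probe and the same change on all FGF2 arrays. That does not test the unequal spreads or the dose differences of the real arrays. The number of arrays limits the precision. The detected probe with the highest mean signal stood for a gene, and gene numbers were matched to RefSeq GRCm38.p6. Values on every array are given for the members that passed, for the smallest p of each role class and for the 3 steepest slopes, and from each list up to 4 genes with the smallest p are named, except for a few results that are not reported here. The members and lists were chosen with earlier results of these data known. Alternatives changed the background correction, offset, normalisation, filter, prior, probe choice and arrays. Bead standard deviations were not used here.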

Additional observations from a re-analysis of the deposited data

How the results depend on the processing

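No member value changed sign in a call under any alternative run, and 8 of the 12 calls held in every fit. The other 4 were Eif3a, Eif4b, Eif4e3 and Aars. The Aars call was lost with normexp and an offset of 16 (adjusted p = 0.0591) and with a robust control spread, an alternative chosen after seeing the data (0.0731). Without a filter the calls of Eif3a, Eif4b and Eif4e3 were lost. The member count was 9 to 15 over the alternatives and 9 to 14 with 1 array left out. Eif2s3y gained a call in 8 alternatives and without the 4 ng/ml array.

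Over all probes, leaving out 1 array gave 2598 (without 40 ng/ml) to 4899 calls (4327 with all), with 2848 without control replicate 1. The share of higher calls, 50.1%, became 37.9% with arrays scaled to the same median over all probes, and 53.6% with the same median over probes detected on all 6 arrays, an alternative chosen after seeing the data. The slope counts were 52 without background correction, 5 and 49 with normexp at offsets 16 and 50, 71 with a trended robust prior and 2 with the robust control spread. At 4 ng/ml the probe count (1633) became 2731, 2484, 2682 and 2605 under the first 4 of these and 922 with the same median over all probes. With 1 control left out, probe counts were 307 to 1387 at 4 ng/ml, 1271 to 2800 at 13 ng/ml and 1243 to 2762 at 40 ng/ml, and member counts 1 to 3, 2 to 10 and 3 to 9. Member counts at 4, 13 and 40 ng/ml were 1, 5 and 4 with that scaling and 2, 5 and 5 without a filter, and 2 at 4 ng/ml with the robust spread. The cause was not tested. No paired analysis was possible because the FGF2 arrays carry no replicate numbers shared with the controls. Signal over background limits the dim probes.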

Other observations

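Several dim members had larger changes in the authors' deposited table than in the normalised signals. In that table the mean log2 ratio was 0.54 for Eif3g, 0.54 for Eif3j1, 0.48 for Eif4e and 0.26 for Eef1aknmt, where the fitted log2 changes were 0.17, 0.05, 0.11 and 0.08. The inferred negative controls had an SD of 238 to 275 per array, against a median absolute deviation of 11.6 to 13.9. Their median signal was 94.8 to 104.2 per array, while the brightest of them reached 12905 to 14202. The main correction used the SD, and the robust alternative used the median absolute deviation. With the robust control spread, chosen after seeing the data, the changes were 0.48 for Eif3g, 0.46 for Eif3j1 (adjusted p = 0.116), 0.45 for Eif4e (adjusted p = 0.0637) and 0.21 for Eef1aknmt (adjusted p = 0.09). Of these 4 genes only Eif3g passed in either fit. Eef1b2 had 0.04 in the authors' deposited table and -0.08 in the fit.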
